A study of Homo sapiens with 2 samples.

Results

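The genes described here are 7 genes of chromosome 1p36, the outer part of the short arm of chromosome 1. They are CASZ1, CAMTA1, CHD5, RERE, KCNAB2, MIR34A and PRDM16. Their NeuroD1 peaks were taken from ChIP-seq of IMR-32 cells, an unedited (WT) neuroblastoma cell line with amplified MYCN. A peak was counted for a gene when it overlapped the RefSeq gene body or lay up to 20 kb from either end, and 6 of the 6183 peaks in the list met this rule. The 6 peaks were thus chosen by their calls (the fold enrichment and p-value that put a peak in the list) together with their position. The samples were 1 ChIP library (NeuroD1) and 1 input library, made from chromatin without an antibody step. Only the peaks of the ChIP sample enter here, and the input was not analysed here. There was no replicate, so no test between samples was possible and no interval below covers variation between libraries. Intervals of reads and of their ratios cover counting error only. The peaks do not give the sequencing depth of the library, which is therefore unknown. The labels name a NeuroD1 antibody, whereas the written ChIP protocol of the study names an antibody to H3K27Ac, and the list was used as labelled.

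NeuroD1 is a neurogenic transcription factor of the basic helix-loop-helix class that binds E-box DNA together with an E protein. The 1p36 region is often lost in neuroblastoma, and several of its genes have been studied as tumour suppressors. CASZ1 encodes a zinc finger transcription factor that promotes differentiation of neuroblastoma cells. CHD5 encodes a chromodomain helicase of a nucleosome remodelling complex, and MIR34A encodes a microRNA that p53 induces. CAMTA1 encodes a calmodulin-binding transcription activator, RERE a corepressor of the atrophin family, and PRDM16 a zinc finger regulator known from brown fat and blood stem cells. KCNAB2 encodes a cytoplasmic beta subunit of voltage-gated potassium channels.

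NeuroD1 peaks were listed at 4 of the 7 genes. CASZ1 and CAMTA1 had 2 peaks each, RERE and KCNAB2 had 1 each, and CHD5, MIR34A and PRDM16 had none. By the same rule, 29.7% of the 20037 protein-coding genes in RefSeq had a peak. The share was 32.9% among those of 50 to 200 kb, the size class of CASZ1, KCNAB2 and CHD5. In this class 9.49% had 2 or more peaks. Among genes of 200 kb or more, the class of CAMTA1, RERE and PRDM16, the share was 41.6%. For 2 or more peaks it was 17.1% there. The share was 18.1% among the 1913 miRNA genes. On chromosome 1 as a whole, 28.0% of the 2062 protein-coding genes had a peak. The 7 genes were chosen with these peaks known, so the count of 4 is a description and nothing is read from it against these shares.

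The sequences below show the DNA under those peaks that lay at an annotated start site and in a RefSeq promoter window, which runs from 250 bases before to 50 after the start. Windows were matched by symbol for CAMTA1 and KCNAB2 alone among the 7 genes, so the sequences under the CASZ1 and RERE peaks and the peak inside CAMTA1 were not analysed here. Each line gives the part of the peak inside the window and upstream of the start, on the forward strand of GRCh38.p14, 5′ to 3′. Capitals mark CCAAT, or ATTGG where it lies on the opposite strand.
KCNAB2, chr1:5992559-5992675: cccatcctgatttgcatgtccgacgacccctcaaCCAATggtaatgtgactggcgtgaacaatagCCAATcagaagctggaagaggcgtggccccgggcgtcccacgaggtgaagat
CAMTA1, chr1:6785204-6785381: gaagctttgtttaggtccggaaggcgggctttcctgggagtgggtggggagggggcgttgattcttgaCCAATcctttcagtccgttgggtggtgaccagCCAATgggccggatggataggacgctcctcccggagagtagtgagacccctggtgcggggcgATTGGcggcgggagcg

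The NeuroD1-type E-box CAGCTG was absent from both of these windows, as was the other NeuroD1-type form CAGATG, read as CATCTG on the opposite strand. No other E-box of the form CANNTG was found in them. Over all 35116 promoter windows of this length, 29.8% held a NeuroD1-type E-box and 68.7% held an E-box of any kind. Among the 2921 windows that overlapped a NeuroD1 peak the shares were 25.3% and 56.8%. The windows held 167 of the 281 bp of the KCNAB2 peak and 178 of the 204 bp of the CAMTA1 peak, so E-boxes in the remaining bases were not examined. CCAAT, counted on both strands and chosen after these sequences had been read, occurred 4 times in the KCNAB2 window and 3 times in that of CAMTA1. Under the peaks, as printed, lay 2 of the 4 in KCNAB2 and all 3 in CAMTA1. It occurred at least 3 times in 3.14% of all windows and in 13.0% of those with a peak. This cut is the lower of the counts in the KCNAB2 and CAMTA1 windows. Any CCAAT at all was found in 34.6% of all windows and in 48.9% of those with a peak. The GC content was 65.0% in the KCNAB2 window and 71.3% in that of CAMTA1, against a median of 58.7% over all windows and 68.0% over those with a peak. These windows overlap where a gene has several starts, and no test was made. They cover promoters alone. For its NeuroD1 binding sites the study reports enrichment of NeuroD1 motifs by a motif search, which was not repeated here.

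CASZ1 had the highest NeuroD1 peaks of the 7 genes. Its body runs from 10636604 to 10796646 on chromosome 1, and the gene is known to be read from the reverse strand, so that its start lies at the higher coordinate. The peak from 10796588 to 10796896 covered that end of the gene, with its summit at 10796759, 113 bp outside the body. Its fold enrichment was 19.3, a ratio of ChIP pileup to background at the summit in which both have 1 added, and its −log10 q was 41.0. The number of ChIP reads at the summit, solved from these deposited values, was 39 (95% exact Poisson interval 27.7 to 53.3). At a fixed background these bounds give fold enrichments of 13.8 and 26.2. Among all peaks it ranked 104 by fold enrichment, and 12 of the 648 on chromosome 1. By −log10 q it ranked 161. The lncRNA gene LOC105376733 lay 12.3 kb from the same peak.

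The other CASZ1 peak, from 10679552 to 10679969, lay inside the gene, 116.9 kb from its higher end. It had 36 reads (25.2 to 49.8) and ranked 123 of the list, with 17.8-fold enrichment and −log10 q = 36.4. By −log10 q its rank was 211. It was the widest of the 6 peaks at 418 bp, wider than 91.9% of all peaks, whereas the peak at the gene end was 309 bp wide. The ratio of its reads to those of the peak at the gene end was 0.923 (95% exact binomial interval 0.570 to 1.49), so the peaks of CASZ1 were not distinguishable by their reads. Exons and introns were not analysed here, since the reference gave gene bodies without them.

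KCNAB2 had 1 peak, from 5992559 to 5992839, which covered the lower end of the gene (5992676 to 6101180, forward strand). The summit lay 21 bp inside the gene from its annotated start. The peak had 26 reads (17 to 38.1) and was enriched 13.0-fold (8.67 to 18.8), with −log10 q = 22.0, and it ranked 376 of 6183. NPHP4, a gene of the cilium, lay 134 bp from this peak on the side away from KCNAB2, so the peak met the 20 kb rule for both genes. No peak overlapped the other 3 KCNAB2 promoter windows in the table, at starts within the gene. The window with its start at 6026333 held 2 of the NeuroD1-type E-boxes, and the others held none.

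At RERE, a single peak lay within the gene body (8352404 to 8817640), from 8703291 to 8703606. Its summit was 114.2 kb from the higher end, where the full-length gene is known to start. It had 25 reads (16.2 to 36.9), an enrichment of 12.5-fold (8.28 to 18.3) and −log10 q = 20.6, and it ranked 424. The KCNAB2 and RERE peaks differed by 1 read, and the CASZ1 peak at the gene end had 1.56 times the reads of RERE (0.921 to 2.69) and 1.5 times those of KCNAB2 (0.890 to 2.57). Both intervals include 1, so the order of these genes was not resolved at this depth.

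CAMTA1, the longest of the 7 genes at 984.3 kb (6785454 to 7769706), had the weakest peaks. The first, from 6785178 to 6785381, ended 73 bp before the annotated start, and 198 bp separated it from the divergent transcript CAMTA1-DT. It was covered by 10 reads (4.80 to 18.4), was enriched 5.31-fold (2.80 to 9.35) with −log10 q = 3.31, and ranked 5096. The second, from 7083896 to 7084041, lay 298.5 kb inside the gene, with 11 reads (5.49 to 19.7) and 5.79-fold enrichment (3.14 to 9.97), and it ranked 4499 with −log10 q = 4.24. Its width of 146 bp was the smallest width in the list, which other peaks shared. No peak overlapped the other 4 CAMTA1 promoter windows, and those with starts at 7669730 and 7704736 held 1 NeuroD1-type E-box each. The CASZ1 peak at the gene end had 3.90 times the reads of the first CAMTA1 peak (1.91 to 8.76) and 3.55 times those of the second (1.78 to 7.68). The peaks of CAMTA1 also had fewer reads than those of KCNAB2 and RERE. The ratios lay between 0.385 and 0.440, with upper bounds from 0.824 to 0.927 for each pair taken alone. These intervals cover counting error within 1 library for 15 pairs of peaks, with no adjustment for their number, and are a description and not a test between conditions. Nor do they allow for the choice of peaks by calls made on the same reads.

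**Figure D1:**
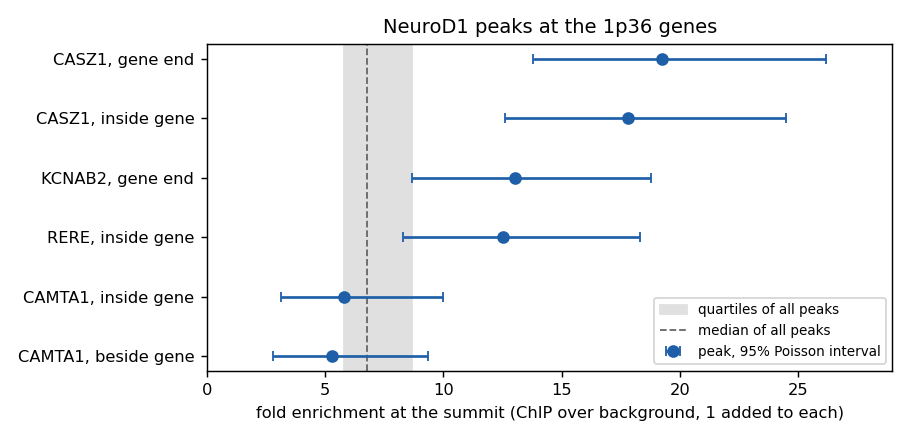
Fold enrichment at the summit of the 6 NeuroD1 peaks (points), with 95% exact Poisson intervals of the ChIP reads carried over to fold enrichment at a fixed background (bars). The grey band spans the quartiles of all 6183 peaks (5.79 to 8.68) and the dashed line their median (6.79). The CASZ1, RERE and KCNAB2 points lie above the band, and the CAMTA1 points lie below the median.

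**Figure D2:**
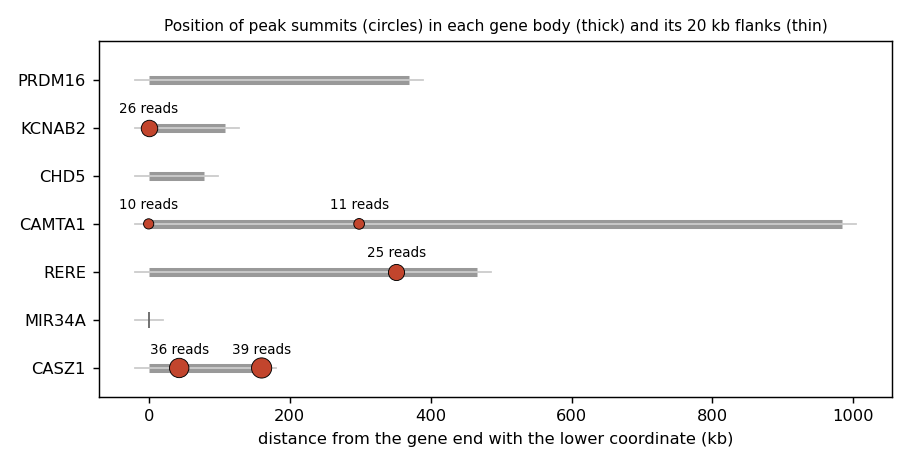
Summit positions (circles, area proportional to ChIP reads) along each gene body (thick line) with its 20 kb flanks (thin line), as the distance in kb from the gene end with the lower coordinate. The peaks of KCNAB2 and the first of CAMTA1 sit at the lower gene end, 1 CASZ1 peak sits at the higher end, and the others lie inside the genes.

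No peak was listed at CHD5, MIR34A or PRDM16. CHD5 (6101787 to 6180321) is the neighbour of KCNAB2, and the nearest peak to it was that at the start of KCNAB2, 108.9 kb away. This distance was near the median of 94.91 kb over 19974 protein-coding genes on chromosomes with a peak. PRDM16 (3069203 to 3438621) lay 1694 kb from the nearest peak, and 94.7% of protein-coding genes lay nearer to one. The nearest peak to MIR34A was the RERE peak, at 448.1 kb. Its host transcript MIR34AHG (9148011 to 9182338) lay 444.4 kb and LNCTAM34A, which overlaps the start of the host, 478.6 kb from any peak. The promoter window of MIR34AHG held 1 NeuroD1-type E-box and that of LNCTAM34A none. No other peak lay close to the 20 kb limit. The nearest peak outside it was 215.8 kb from CASZ1, 527.2 kb from KCNAB2, 792.6 kb from CAMTA1 and 1268 kb from RERE.

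The mature 5p product of MIR34A is shown with that of MIR34B, a related gene on chromosome 11, since neither gene had a peak within 20 kb. Capitals mark the seed, bases 2 to 8, and both sequences are from RefSeq (GRCh38.p14).
hsa-miR-34a-5p, chr1:9151735-9151756, reverse strand: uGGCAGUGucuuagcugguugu
hsa-miR-34b-5p, chr11:111512950-111512972, forward strand: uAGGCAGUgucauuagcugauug
In the RefSeq set used, the seed of miR-34a-5p was shared with miR-449a and miR-449b-5p, while that of miR-34b-5p was shifted by 1 base. This set may be incomplete, and the mature product of MIR34C was not compared here. The nearest peak to miR-34b-5p was 36.09 kb away.

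All 6 peaks at the 1p36 genes had the lowest background in the list. The background is the level of reads against which the ChIP reads at a summit were tested, and for these peaks it was 1.04. MACS takes the larger of the genome-wide level and the local level, so a value of 1.04 says that the local level was at or below the genome-wide one, and by how much is not recorded. In the whole list 2089 of 6183 peaks (33.8%, 95% exact Clopper-Pearson interval 32.6% to 35.0%) were at this value, with a median background of 1.31, an upper quartile of 2.0 and a maximum of 98.0. On the rest of chromosome 1 only 49 of 642 peaks were at it (7.63%, 5.70% to 9.97%), and their median background was 1.66. The background went by region, with 44 of the 48 peaks in the first 50 Mb at 1.04, against 11 of 600 beyond. Both intervals thus treat peaks as more independent than they are. Because the 6 peaks at the 1p36 genes share 1 background, their order by fold enrichment is that of their reads. Among the 2089 peaks at 1.04, 97.8% had fewer reads than the CASZ1 peak at the gene end and 97.5% fewer than the peak inside CASZ1. The shares were 92.2% for KCNAB2 and 90.9% for RERE, but 7.61% and 1.77% for the CAMTA1 peaks. The median of the 6 peaks was 25.5 reads and a fold enrichment of 12.8, against 14 reads and 7.23 for all peaks at 1.04. The fewest reads with which a peak was called at this background were 8, at a fold enrichment of 4.34. A site in CHD5, MIR34A or PRDM16 with a summit of fewer reads would therefore not be in the list, and weak binding there was not detectable at this depth. Only 4 peaks at this background had 8 reads, against 243 with 11. Whether 8 reads sufficed for a call at every site was not tested.

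From PRDM16 to CASZ1 the list held 8 peaks, the 6 described above and 2 others, and all 8 had a background of 1.04. In this stretch 7 of 70 protein-coding genes had a peak within 20 kb (10%). Leaving out the 6 protein-coding members, it was 3 of 64 (4.69%, Clopper-Pearson bounds 0.977% and 13.1%). Neighbouring genes can share a peak, so this interval treats genes as more independent than they are. By the same rule a peak was listed at 29.7% of all protein-coding genes and at 28.0% of those on chromosome 1. These 3 were NPHP4, which shares the KCNAB2 peak, and KIF1B and PGD, which share 1 peak. KIF1B encodes a kinesin that has been studied as a 1p36 tumour suppressor, and PGD encodes an enzyme of the pentose phosphate pathway. Their peak, from 10398904 to 10399049, ended 15 bp before PGD and 17.3 kb from KIF1B, with 13 reads (6.92 to 22.2) and a fold enrichment of 6.75. The eighth peak, from 5465233 to 5465447, had 11 reads and lay within 20 kb of none of these genes.

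Of 17 other 1p36 genes discussed in neuroblastoma, 2 had a peak (11.8%, 1.46% to 36.4%), KIF1B and ARID1A. The share was 29.7% over all protein-coding genes and 8.04% over those in the first 50 Mb of chromosome 1. ARID1A, a subunit of the BAF chromatin remodeller, had 4 peaks. The highest of them, from 26695462 to 26695836, lay 179 bp from the gene, with 41 reads (29.4 to 55.6), a fold enrichment of 20.2 and a rank of 90, close to the CASZ1 peaks. TP73, DFFA, DFFB, CASP9, UBE4B, CTNNBIP1, ERRFI1, TNFRSF25, AJAP1, PIK3CD, MTOR, SKI, EPHB2, RUNX3 and ID3 had none.

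Of 23 genes related to the members, nearly all of them elsewhere in the genome, 13 had a peak (56.5%, 34.5% to 76.8%), where 29.7% of all protein-coding genes and 41.6% of those of 200 kb or more did. Of their 23 peaks, 12 had a background of 1.04. Among the other CHD helicases, CHD2, CHD3, CHD4, CHD6, CHD7, CHD8 and CHD9 had a peak and CHD1 had none. The highest was at CHD6, with 25 reads (16.2 to 36.9) and a fold enrichment of 12.5. ATN1, the atrophin related to RERE, had a peak of 26 reads (17 to 38.1) and a fold enrichment of 11.4. CAMTA2 had 3 peaks, the highest with 20 reads (12.2 to 30.9) and a fold enrichment of 10.1. Of the channel subunits KCNAB1 and KCNAB3 neither had a peak, nor had MIR34B and MIR34C, nor had MECOM, the closest relative of PRDM16. Of the other PRDM genes, PRDM1, PRDM8, PRDM10 and PRDM15 had a peak and PRDM2, PRDM12, PRDM13 and PRDM14 had none. The PRDM15 peak, with 46 reads (33.7 to 61.4) and a fold enrichment of 22.6, was the highest of all those of the related genes. The list of related genes was chosen with earlier results of these data known, and no test was made.

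Along chromosome 1 the low background of the 1p36 peaks extended well beyond the 7 genes. Of the 48 peaks in the first 50 Mb, 44 were at a background of 1.04 (91.7%), and of the 600 peaks beyond, 11 were (1.83%). The change lay between a peak that ended at 50346960, with a background of 1.04, and the next, which began at 50960240, with 1.77. Peaks were also fewer in the first 50 Mb. There were 7.02 peaks per 100 protein-coding genes, against 43.5 on the rest of chromosome 1 and 30.8 on all other chromosomes. Of protein-coding genes in the first 50 Mb, 55 of 684 had a peak (8.04%), against 522 of 1378 beyond (37.9%). Of the 22 other chromosomes with peaks, only chromosome X, with 3.18 per 100 genes and every peak at 1.04, had a lower rate. On the 15 autosomes with over 50% of their peaks at 1.04 it ran from 18.5 to 32.4. The median fold enrichment of the called peaks was 6.98 in the first 50 Mb and 6.68 beyond, with a median of 14 and 18 reads. The limit of 50 Mb was set after these values were seen, so they are a description with no test. Copy number was not analysed here, and its part in the background and in the number of peaks at the 1p36 genes was not tested.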

How the data were processed

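The authors deposited a peak list of 1 NeuroD1 ChIP library. Per the labels, the processing notes name BWA 0.7.17, MACS2 2.2.7 and hg38, and the peak names carry macs3. Which control library and q-value limit were set is not given in the sources used here. The deposited values are the ratio of ChIP pileup to local background at the summit (fold enrichment), the −log10 p and −log10 q, and a score made from −log10 q. A further deposited column, fold enrichment over width, was not used. Reads and background were solved from fold enrichment and −log10 p with the Poisson formula of MACS. The lowest background (1.04) and the weight of 1 read (0.98) came from the spacing of the deposited values. Reads were whole within 0.02 for 100% of peaks, where the solution nearest a whole number was taken for each. On 1000 simulated peaks built with the same formula and read weight, 100% of reads were recovered. This checks the solving step and not whether the formula holds for the deposited values.

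Genes and promoter windows came from RefSeq GRCh38.p14, with 59679 genes. Intervals are at 95%. The named genes are the 7 members with all of their peaks, the genes with a peak in both gene lists, and genes that share a peak. The members and lists were chosen with earlier results of these data known. Alternatives were a −log10 q or a fold enrichment of at least 5, the gene body alone, 3 kb or 50 kb, the summit, rank by −log10 q, a read weight of 1, and CANNTG. Calculations used scipy 1.17.1, pandas 2.3.3 and numpy 2.4.6 under Python 3.11.15, and figures matplotlib 3.10.9.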

Additional observations from a re-analysis of the deposited data

How the results depend on the processing

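The 6 peaks at the 1p36 genes became 4 with a −log10 q of at least 5, which removed both CAMTA1 peaks and left 3 genes with a peak, and 5 with the gene body alone, which removed the CAMTA1 peak before the start. With 3 kb or 50 kb, the summit, or a fold enrichment of at least 5, the counts were 6 peaks and 4 genes. The median background was 1.04 under each alternative run for it. All 6 peaks had this value, so any subset of them had to give it. The median fold enrichment was 13.0 with the gene body alone and 15.4 with a −log10 q of at least 5. By −log10 q the CASZ1 peaks ranked 161 and 211. Of the 17 other 1p36 genes, 1 had a peak with the gene body alone or with 3 kb, since the peak near KIF1B lies farther away. With 50 kb, 18 of the 23 related genes had a peak. A wider flank can only add genes with a peak. The share of all genes under the alternative rules is not given here, so nothing is read from these counts. No paired analysis was possible because the series has a single ChIP sample. With 25 to 39 reads at CASZ1, RERE and KCNAB2, the depth limits the order of these peaks.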
